A study of Mus musculus with 6 samples.

Results

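Genes of DNA replication and mitosis were followed in the bone marrow of mice from a pair of outcrosses. The list has 39 genes that were named for their roles in the cell cycle. A gene was measured where the annotation of the array gave a probe set exactly 1 symbol and that symbol was on the list. This held for 38 of the 39 genes, among 18193 genes in all, and for 89 of 45037 probe sets. Ccnb1 had no such probe set and was not analysed here. Of the 38 genes, 18 were grouped as genes of S phase or of the passage from G1 to S, and 20 as genes of G2 and mitosis. Ccna2, which encodes a cyclin of both S phase and G2, was counted among the mitosis genes.

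Marrow came from adult female (AKR/J x FVB/NJ)F1 mice, called AKR F1 here, and from adult female (DBA/2J x FVB/NJ)F1 mice, called DBA F1 here, with 3 arrays for each cross. All animals are first-generation hybrids with the FVB/NJ strain on one side of the cross, and the labels name no experimental treatment. They were killed by cervical dislocation under Avertin, an anaesthetic, and the tissue was frozen before RNA extraction. The comparison asks how basal expression in marrow differs with the genotype. Nothing in the labels ties an array to an animal, so the p-values below measure the spread between these samples, which may be technical. Whole marrow is a mixture of cells, and fewer dividing cells and less RNA per dividing cell cannot be told apart in it.

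Bone marrow is among the most proliferative tissues of an adult mouse, because red cell precursors, promyelocytes and early B cells divide repeatedly before they mature. D-type and E-type cyclins with their kinases inactivate the retinoblastoma family and release E2F factors, which turn on genes for licensing and copying DNA. The MuvB complex, with MYBL2 and FOXM1, later turns on the genes of mitosis, and their protein products are then removed by ubiquitination as the cell divides. Transcripts of both waves are therefore widely read as a measure of how many cells in a tissue are cycling.

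The promoters of the genes were searched for 4 motifs, and the shares below are descriptions whose differences were not tested. RefSeq promoters of assembly GRCm38.p6, which span 250 bases before to 50 after a gene's start, were matched by symbol for 32 of the 39 listed genes, with 34 promoters between them. The letters TTTGAA, the core of the cell cycle homology region bound by MuvB, occurred on either strand in 12 of 17 promoters of mitosis genes (70.6%) and in 1 of 17 promoters of S phase and G1/S genes (5.88%), against 16% of 21263 promoters of protein-coding genes and 17.9% of all 32851 promoters. Its variant TTCGAA occurred in 3 of 17 mitosis promoters and 1 of 17 S phase and G1/S promoters, against 1.85% of protein-coding and 1.56% of all promoters. The letters TTTNNCGC, a core of E2F sites, showed the reverse order, in 1 of 17 mitosis promoters and in 7 of 17 S phase and G1/S promoters (41.2%), against 6.24% of protein-coding and 5.17% of all promoters. CCAAT, the letters read by NF-Y, occurred in 15 of 17 mitosis promoters and 11 of 17 S phase and G1/S promoters, against 38.2% of protein-coding and 37.4% of all promoters. Hits of different motifs overlapped in 1 promoter, that of Mcm7, where CCAAT and TTTNNCGC share bases. A match is a description of these letters and not evidence of a bound factor. The GC content was 60.7% in the S phase and G1/S promoters and 59.2% in the mitosis promoters, against 56.2% in protein-coding promoters.

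The sequences that follow are the 250 bases before the start, written 5' to 3' along the gene. Ccnd3 and Ccne1 are shown because they passed the test below. Foxm1 passed too, but it is among the listed genes without a matched promoter. Mcm6, Cdc20 and Cdk1 are shown because they carry the motifs of a single wave or of both and did not pass. Capitals mark TTTNNCGC and CCAAT in Ccnd3, Ccne1 and Mcm6, TTTGAA and CCAAT in Cdc20, and both of those as well as the E2F letters in Cdk1, on either strand. The upstream Ccnd3 promoter and the Ccne1 promoter hold none of them in this window. In Mcm6 a pair of TTTNNCGC hits on opposite strands overlap, and so do hits of one motif in Mcm5 and Ube2c.
Ccnd3, upstream start (chr17:47504801-47505050, strand +): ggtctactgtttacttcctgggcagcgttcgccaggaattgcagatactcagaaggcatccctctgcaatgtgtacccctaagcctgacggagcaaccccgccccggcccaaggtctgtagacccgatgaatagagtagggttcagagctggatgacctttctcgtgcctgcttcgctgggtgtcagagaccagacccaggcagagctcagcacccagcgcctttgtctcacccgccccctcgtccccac
Ccnd3, downstream start (chr17:47593217-47593466, strand +): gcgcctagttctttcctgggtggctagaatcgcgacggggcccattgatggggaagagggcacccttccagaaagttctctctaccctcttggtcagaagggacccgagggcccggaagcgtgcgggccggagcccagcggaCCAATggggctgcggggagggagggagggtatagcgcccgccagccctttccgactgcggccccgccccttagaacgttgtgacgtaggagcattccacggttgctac
Ccne1 (chr7:38107491-38107740, strand -): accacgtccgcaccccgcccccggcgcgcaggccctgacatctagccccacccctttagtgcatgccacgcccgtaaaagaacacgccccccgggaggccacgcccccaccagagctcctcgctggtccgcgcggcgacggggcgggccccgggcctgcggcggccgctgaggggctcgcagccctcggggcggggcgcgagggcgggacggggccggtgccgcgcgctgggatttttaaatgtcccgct
Mcm6 (chr1:128359706-128359955, strand -): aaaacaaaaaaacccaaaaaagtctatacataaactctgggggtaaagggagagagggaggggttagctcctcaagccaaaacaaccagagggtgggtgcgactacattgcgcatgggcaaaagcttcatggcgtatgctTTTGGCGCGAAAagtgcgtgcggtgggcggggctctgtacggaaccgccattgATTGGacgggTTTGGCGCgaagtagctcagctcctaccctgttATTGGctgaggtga
Cdc20 (chr4:118437344-118437593, strand -): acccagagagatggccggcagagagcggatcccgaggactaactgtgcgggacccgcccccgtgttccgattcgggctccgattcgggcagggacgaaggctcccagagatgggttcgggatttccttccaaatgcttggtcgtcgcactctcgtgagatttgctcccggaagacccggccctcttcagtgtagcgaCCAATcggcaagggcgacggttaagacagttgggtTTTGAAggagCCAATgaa
Cdk1 (chr10:69352913-69353162, strand -): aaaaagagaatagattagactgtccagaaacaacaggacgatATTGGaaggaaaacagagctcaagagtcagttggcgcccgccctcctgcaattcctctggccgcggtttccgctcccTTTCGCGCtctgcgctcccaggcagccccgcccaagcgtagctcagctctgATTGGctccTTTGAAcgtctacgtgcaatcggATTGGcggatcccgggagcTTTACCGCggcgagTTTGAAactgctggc

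All measured markers of red cell precursors (9), promyelocytes (5), late neutrophils (7) and B cell precursors (7) lay above 5.16. This is the median level of the probe sets. All 12 skeletal muscle markers and 11570 of the 18193 genes also lay above it, so this level does not identify the tissue. Values are on the log2 scale and come from the probe set with the highest mean for that gene. Every difference is the AKR F1 mean less the DBA F1 mean, with the standard error (SE) of limma's fit. The test was limma's with Benjamini-Hochberg adjustment over all 18193 genes and a threshold of 0.05. It called 15.2% of all genes, 9.20% higher and 6.04% lower in AKR F1, and 22.3% of the genes above the median level. Several measures that are not cell cycle genes also differed between the groups of arrays. The 3' to 5' index, the mean excess of 3' over 5' control probe sets, was 1.25, 2.03 and 1.80 in AKR F1 replicates 1 to 3, against 1.23, 1.09 and 1.03 in DBA F1. The mean of 18 hybridization control probe sets was 10.08 to 10.28 in AKR F1 and 10.62 to 11.03 in DBA F1. The 12 skeletal muscle markers averaged 6.80 to 8.01 in AKR F1 and 8.81 to 11.58 in DBA F1, and 10 of them were called lower, or 0 to 11 when 1 array was left out. Red cell precursor markers averaged 11.98 to 12.01 in AKR F1 and 11.62 to 11.90 in DBA F1. Of these 9, 3 were called higher (Gata1, Epor and Alas2), or 0 to 2 when 1 array was left out. The differences of 7 were above 0 and those of 2 below it, Rhag (-0.24) and Tfrc (-0.12). Promyelocyte markers averaged 12.34 to 12.52 in AKR F1 and 11.79 to 12.28 in DBA F1. Elane, 1 of 5, was called higher, with 0 to 2 called when 1 array was left out. Ctsg differed by -0.26 and the other 4 were above 0. B cell precursor markers averaged 8.18 to 9.03 in AKR F1 and 8.62 to 8.93 in DBA F1. Ebf1, 1 of 7, was called lower. Igll1 and Vpreb1 differed by 0.53 and 0.42, and the other 5 were below 0. Of the markers of late neutrophils 1 of 7 was called lower and 4 were above 0. Of those of mature B cells 1 of 4 was called lower and 3 were above 0. Of those of stem and progenitor cells 0 of 4 passed, with 1 of these at an unadjusted p under 0.05, and all 4 were above 0. The part that red cell precursors, promyelocytes and B cells have in the results below was not tested.

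For most replication and mitosis genes no difference between the crosses passed the test, and the 3 genes that passed encode regulators of the cycle. Ccnd3, Ccne1 and Foxm1 were higher in AKR F1 by 1.73-fold, 1.38-fold and 1.47-fold, none was lower, and 35 genes did not pass. Ccnd3 is uncertain because its probe sets differed in sign, and Foxm1 because none of its 4 probe sets passed when all probe sets were tested. The Foxm1 probe sets also differed in sign, but the negative one (-0.03) averaged 2.93, below the median level. These 3 of 38 genes (7.89%) stand beside 15.2% of all genes and 22.3% of the genes above the median level, where all 38 lie. The median difference was -0.02 over the 18 S phase and G1/S genes and -0.07 over the 20 mitosis genes, against 0.06 over all genes. The differences ran from -0.40 (Ttk) to 0.79 (Ccnd3), with 15 above and 23 below 0. Over all genes 11111 were above and 7082 below 0, and over those above the median level 6677 and 4893. The mean of the S phase and G1/S genes was 10.64, 10.67 and 10.76 in AKR F1 replicates 1 to 3, against 10.55, 10.68 and 10.57 in DBA F1. The mean of the mitosis genes was 10.52, 10.53 and 10.66 in AKR F1, against 10.57, 10.68 and 10.55 in DBA F1. The groups overlap in both means.

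A missed threshold does not show that a gene was equal, so the intervals are given. For 32 of the 35 genes that did not pass, the 95% interval of the fold at the brightest probe set lay within 1.5-fold either way, and for all 35 within 2-fold. The exceptions to the first bound were Tk1 (1.08 to 1.52), Plk1 (1.08 to 1.72) and Ttk (0.63 to 0.91). The groups did not overlap for 18 of the 38 genes (47.4%), 10 with AKR F1 higher and 8 with AKR F1 lower. This held for 36.7% of all genes and for 47.3% of those above the median level. The median SE was 0.10 on the log2 scale, and 14 of the 38 genes had an unadjusted p under 0.05 in limma. So did 5645 of all 18193 genes and 4918 of the 11570 genes above the median level.

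**Figure D1:**
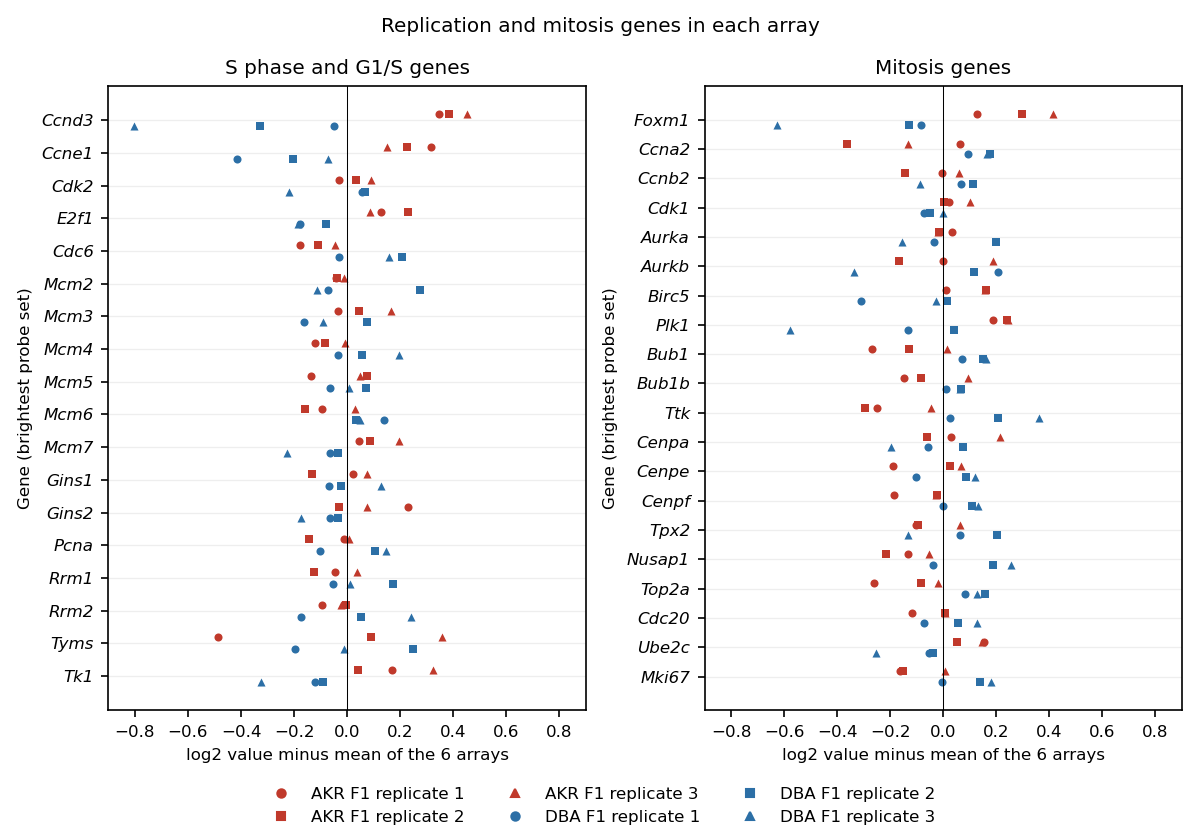
Each row is a gene and each point an array, plotted as its log2 value minus the mean of the 6 arrays, with AKR F1 in red above DBA F1 in blue and the replicate number given by the marker. Ccnd3, Ccne1 and Foxm1 are among the 10 rows with all AKR F1 points to the right of all DBA F1 points, and DBA F1 replicate 3 lies farthest to the left in Ccnd3, Foxm1 and Plk1.

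**Figure D2:**
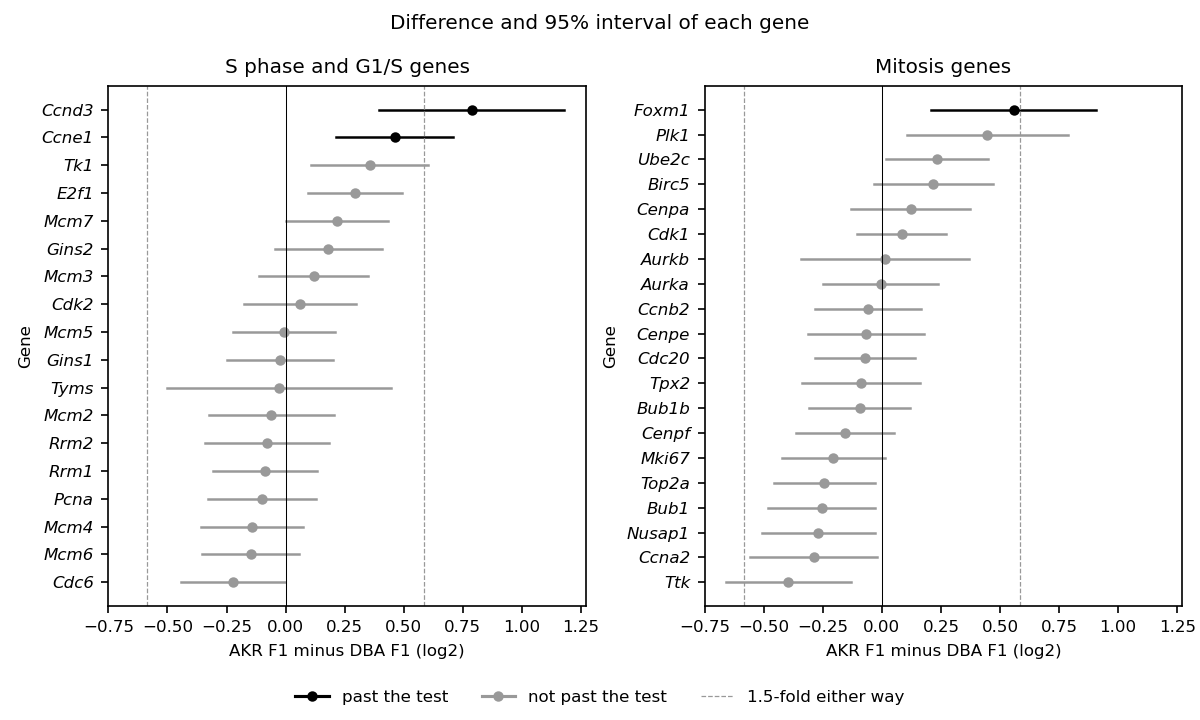
The x axis is the log2 difference of AKR F1 from DBA F1, with points at the estimates and lines over their 95% intervals from limma, with the genes past the test in black and dashed lines at 1.5-fold either way. The intervals of 32 of the 35 grey genes lie between the dashed lines.

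Of the 18 S phase and G1/S genes the 2 that passed encode cyclins of G1. Ccnd3 encodes cyclin D3, which activates CDK4 and CDK6 and is the D-type cyclin that mouse red cell precursors and early lymphocytes depend on. Its values were 12.23, 12.27 and 12.33 in AKR F1, against 11.83, 11.55 and 11.08 in DBA F1. The AKR F1 arrays were nearly even and the DBA F1 arrays spread over a wider range below them. The means were 12.28 ± 0.05 in AKR F1 and 11.49 ± 0.38 in DBA F1 (SD, n = 3 each). They differed by 0.79 with an SE of 0.17, and limma's adjusted p was 0.021. Another Ccnd3 probe set differed by 0.41 and passed when all probe sets were tested (limma's adjusted p = 0.030). The last of the 3 differed by -0.45 with overlapping groups (limma's adjusted p = 0.34). With the mean of the 3 probe sets the Ccnd3 difference was 0.25 and did not pass (limma's adjusted p = 0.15).

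Ccne1 encodes cyclin E1, the partner of CDK2 that starts DNA synthesis. It was at 10.42, 10.34 and 10.26 in AKR F1, against 9.69, 9.91 and 10.04 in DBA F1. All AKR F1 arrays lay above all DBA F1 arrays. The AKR F1 mean was higher by 0.46 with an SE of 0.11 (limma's adjusted p = 0.027). The other Ccne1 probe set gave 9.33, 9.39 and 9.39 in AKR F1, against 8.78, 8.81 and 8.57 in DBA F1, a difference of 0.65 (adjusted p = 0.0072 in limma). It was the one probe set of these genes that also passed a threshold of 0.01. Ccne2, which encodes the related cyclin E2 and is outside the 39 genes, was lower in AKR F1. It averaged 8.75 ± 0.13 in AKR F1 against 9.41 ± 0.31 in DBA F1 (SD, n = 3 each), which differ by -0.66 (limma's adjusted p = 0.027).

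Cdk2, the kinase of both E cyclins, averaged 9.04 ± 0.06 in AKR F1 against 8.98 ± 0.16 in DBA F1 (SD, n = 3 each), a difference of 0.06 with a 95% interval of -0.18 to 0.30. E2f1, an activator of S phase genes, was at 8.47, 8.57 and 8.42 in AKR F1, against 8.16, 8.26 and 8.16 in DBA F1. Its groups did not overlap, and the difference of 0.30 missed the threshold (adjusted p = 0.054 in limma). The remaining E2f1 probe sets gave 0.24 and 0.15 and did not pass either.

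None of the 9 listed genes that license and open replication origins (Cdc6, the 6 Mcm genes, Gins1 and Gins2) passed the test. CDC6 loads the MCM helicase onto origins, and its transcript was at 10.45, 10.52 and 10.58 in AKR F1, against 10.60, 10.83 and 10.78 in DBA F1, a difference of -0.22 (adjusted p = 0.16 in limma). The 6 subunits of the helicase, MCM2 to MCM7, act as a ring and had differences between -0.15 (Mcm6) and 0.22 (Mcm7) at their brightest probe sets. Mcm7 was at 12.79, 12.83 and 12.94 in AKR F1, against 12.68, 12.71 and 12.52 in DBA F1, without overlap and without passing (adjusted p = 0.15 in limma). Mcm2 averaged 11.40 ± 0.02 in AKR F1 against 11.46 ± 0.21 in DBA F1, and Mcm5 11.95 ± 0.12 in AKR F1 against 11.96 ± 0.07 in DBA F1 (SD, n = 3 each). Mcm3 and Mcm4 differed by 0.12 and -0.14. At the brightest probe set of each of the 6 the 95% interval stayed within 1.5-fold either way. Other probe sets of these genes spread more widely, from -0.44 (Mcm4) to 0.28 (Mcm7), and none passed. Among them Mcm3 reached -0.35, Mcm5 -0.39 and Mcm6 -0.38, and the intervals of these 3 and of the Mcm4 probe set (0.60 to 0.90 as a fold) went beyond 1.5-fold. With the mean of its probe sets Mcm4 differed by -0.29 (limma's adjusted p = 0.082). Gins1 and Gins2, subunits of the GINS complex that activates the helicase, differed by -0.02 and 0.18.

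Of the listed genes of DNA synthesis and nucleotide supply, Pcna, Rrm1, Rrm2, Tyms and Tk1, none passed the test at its brightest probe set. Pcna, the sliding clamp of DNA polymerases, was at 13.44, 13.30 and 13.45 in AKR F1, against 13.34, 13.55 and 13.59 in DBA F1, with overlapping groups and a difference of -0.10 (95% interval -0.33 to 0.13). Rrm1 and Rrm2, the subunits of ribonucleotide reductase, differed by -0.09 and -0.08 at their brightest probe sets. Another Rrm1 probe set gave 10.45, 9.81 and 10.42 in AKR F1, against 10.96, 11.07 and 10.97 in DBA F1. Its difference of -0.78 passed when all probe sets were tested (limma's adjusted p = 0.023), and the remaining Rrm1 probe set differed by 0.22 without passing. Tyms, thymidylate synthase, was uneven within both crosses, at 6.83 ± 0.43 in AKR F1 against 6.86 ± 0.22 in DBA F1 (SD, n = 3 each). Tk1, the thymidine kinase of S phase, was at 10.59, 10.46 and 10.74 in AKR F1, against 10.30, 10.33 and 10.10 in DBA F1. The Tk1 groups did not overlap, and the difference of 0.36 missed the threshold (adjusted p = 0.060 in limma).

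Among the mitosis genes only Foxm1, 1 of 20, passed. It encodes the transcription factor that drives genes of G2 and mitosis, and was at 8.44, 8.61 and 8.72 in AKR F1, against 8.23, 8.18 and 7.68 in DBA F1. DBA F1 replicate 3 was the lowest array. The difference was 0.56 (SE 0.15, adjusted p = 0.044 in limma), and without DBA F1 replicate 3 it was 0.38 (adjusted p = 0.060 in limma). The other Foxm1 probe sets differed by 0.33, 0.30 and -0.03 with overlapping groups. The last of these averaged 2.93, below the median level of the arrays. In the test over all probe sets none of the 4 passed, with adjusted p = 0.053 in limma for the brightest.

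The mitotic cyclins and their kinase did not pass the test. Cdk1, the kinase that starts mitosis, was at 11.09, 11.07 and 11.16 in AKR F1, against 10.99, 11.01 and 11.06 in DBA F1. Its groups only just failed to overlap, and the difference was 0.08 (95% interval -0.10 to 0.27, adjusted p = 0.54 in limma). Ccnb2, a B-type cyclin, differed by -0.06 with overlapping groups. Ccna2, the cyclin of S phase and G2, was at 11.52, 11.09 and 11.33 in AKR F1, against 11.55, 11.64 and 11.62 in DBA F1. AKR F1 replicate 2 was the lowest array, and the difference of -0.29 did not pass (adjusted p = 0.13 in limma). Of the mitotic kinases, Aurka and Aurkb differed by -0.01 and 0.01 at their brightest probe sets. The other Aurkb probe set averaged 9.05 and differed by -0.40 with overlapping groups, without passing (limma's adjusted p = 0.25). Its 95% interval as a fold, 0.55 to 1.05, went beyond 1.5-fold. Another Aurka probe set, below the median level of the arrays, read 4.38 to 4.54 in AKR F1 and 3.95 to 4.04 in DBA F1. That difference of 0.47 passed when all probe sets were tested (limma's adjusted p = 0.015). Plk1, Polo-like kinase 1, was at 9.64, 9.69 and 9.70 in AKR F1, against 9.32, 9.49 and 8.88 in DBA F1, a difference of 0.45 (adjusted p = 0.079 in limma). As for Foxm1, DBA F1 replicate 3 was the lowest array, and without it the Plk1 difference was 0.27 (limma's adjusted p = 0.11). Without DBA F1 replicate 2 it was 0.58 and passed (limma's adjusted p = 0.049). Birc5, survivin of the chromosomal passenger complex, differed by 0.22.

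The listed checkpoint kinases, spindle and centromere genes and Top2a did not pass the test. Ttk, the checkpoint kinase MPS1, was at 8.25, 8.20 and 8.45 in AKR F1, against 8.52, 8.70 and 8.86 in DBA F1. The groups did not overlap, and the difference of -0.40 was the nearest to the threshold on this side (adjusted p = 0.052 in limma). Ttk passed as lower in AKR F1 with the replicate block (adjusted p = 0.046 in limma), with array weights (0.033), with only probe sets above the median level (0.042) and without DBA F1 replicate 1 (0.025). Bub1 and Bub1b, checkpoint kinases at the kinetochore, differed by -0.26 and -0.09. Top2a, the topoisomerase that untangles sister chromatids, was at 11.83, 12.01 and 12.07 in AKR F1, against 12.17, 12.25 and 12.22 in DBA F1, a difference of -0.24 (adjusted p = 0.12 in limma). Nusap1 and Tpx2, which organise spindle microtubules, differed by -0.27 and -0.09, and the Nusap1 groups did not overlap. The centromere genes Cenpa, Cenpe and Cenpf differed by 0.12, -0.07 and -0.16.

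Mki67, whose protein marks dividing cells in tissue sections, was at 12.62, 12.63 and 12.79 in AKR F1, against 12.78, 12.92 and 12.96 in DBA F1. The groups overlap by 1 array on each side, and the difference was -0.21 (95% interval -0.42 to 0.01, adjusted p = 0.18 in limma). Cdc20 and Ube2c, which direct the degradation of mitotic proteins at the end of mitosis, differed by -0.07 and 0.23. Ube2c was at 12.89, 12.79 and 12.88 in AKR F1, against 12.68, 12.70 and 12.48 in DBA F1, without overlap and without passing (adjusted p = 0.14 in limma). Among the mitosis genes 7 differences were above 0 and 13 below it, against 6677 and 4893 over all genes above the median level.

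The differences were set against gene length. Spearman's rho of the difference with genomic length, introns included, was -0.39 over the 38 genes, -0.55 over the 20 mitosis genes and -0.09 over the 18 S phase and G1/S genes, against -0.17 over the 18029 genes with a length. These are descriptions across genes measured on the same arrays, and genes are not independent replicates. The 3' to 5' index given above differs between the groups, and its part in this order was not tested.

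Of the 89 probe sets 6 passed when all probe sets were tested, 5 higher and 1 lower in AKR F1 (Ccnd3 and Ccne1 with 2 each, Aurka with 1, and Rrm1 lower with 1), against 12.3% of all 45037 probe sets. In 18 of the 29 genes with more than 1 probe set the signs were mixed, in 8 all were negative and in 3 all were positive. In some of the 18, such as Cdk2 and Foxm1, the negative sign came from a probe set below the median level of 5.16. Those probe sets averaged 2.77 and 2.93. The share of mixed signs over all genes was not counted. DNA variants between the strains can change how a probe binds and were not analysed here. Of the 3 genes that passed, Ccnd3 (-0.45 to 0.79) and Foxm1 (-0.03 to 0.56) are among the 18 with mixed signs. Ccne1 is not among them. Ccnd3 is uncertain on this count, as its negative probe set averaged 6.69, above the median level. Foxm1 is uncertain because none of its 4 probe sets passed when all probe sets were tested.

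**Figure D3:**
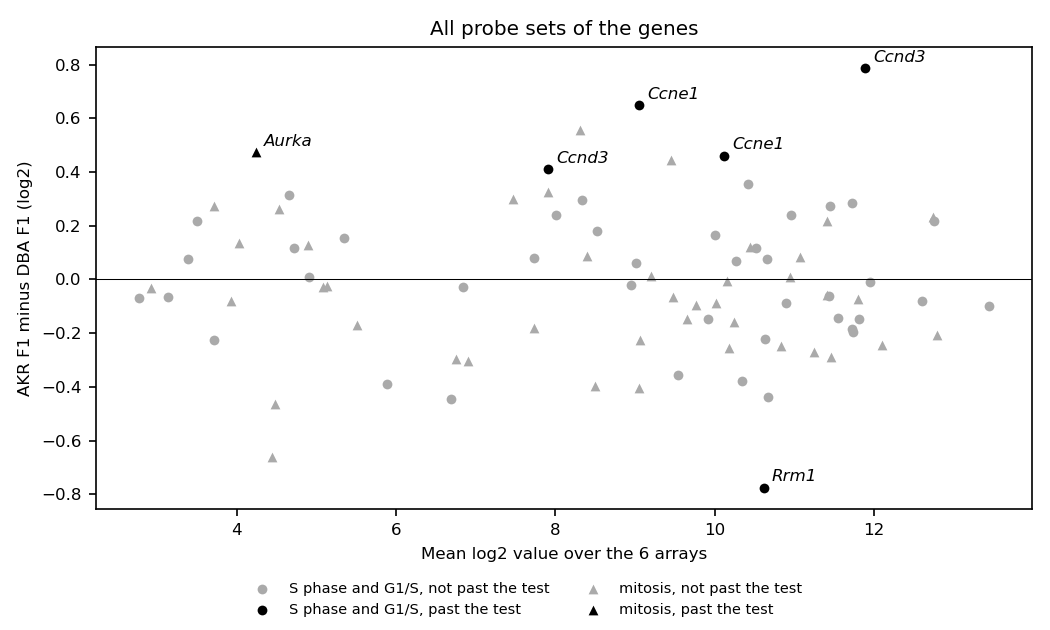
Each point is 1 of the 89 probe sets, with its mean log2 value over the 6 arrays on the x axis and the log2 difference of AKR F1 from DBA F1 on the y axis, circles for S phase and G1/S genes and triangles for mitosis genes. Both Ccne1 probe sets and 2 of 3 Ccnd3 probe sets are black and above 0, and 1 Rrm1 probe set is black at -0.78.

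Genes of the same processes that are not among the 39 passed the test in both directions. The lists were chosen with earlier results of these data known. Of 47 other replication genes 4 were higher and 7 lower in AKR F1, with a median of -0.10. Uhrf1, which carries DNA methylation through replication, was higher by 0.59 and Rnaseh2a, a subunit of ribonuclease H2, by 0.51 (adjusted p = 0.0074 and 0.012 in limma). Pola1, the catalytic subunit of DNA polymerase alpha, averaged 8.61 ± 0.12 in AKR F1 against 9.32 ± 0.19 in DBA F1 (SD, n = 3 each) and differed by -0.71 (limma's adjusted p = 0.0096). Dbf4, the activator of the origin kinase CDC7, differed by -0.51, Orc4 of the origin recognition complex by -0.58 and Mcm8, a helicase of DNA repair, by -0.42. Another probe set differed by -0.07 in Pola1 and in Dbf4, and by 0.36 in Uhrf1. The 4 Orc4 probe sets ran from -0.80 to -0.06, and 2 of them passed when all probe sets were tested.

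Of 48 other mitosis genes 6 were higher and 8 lower, with a median of -0.16. Cenpm, a centromere protein gene, was higher by 0.63 and Pttg1, which encodes the separase inhibitor securin, by 0.52 (adjusted p = 0.0070 and 0.0097 in limma). Zwilch and Ndc80, of the kinetochore, differed by -0.60 and -0.43, Ncapg, a condensin subunit, by -0.47 and Ect2, which acts in cytokinesis, by -0.62 (adjusted p = 0.013, 0.016, 0.015 and 0.017 in limma). The other probe sets of Pttg1 went as low as -0.14.

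Of 26 other regulators of G1 and S, 3 were higher and 6 lower, with a median of -0.02. E2f4, mostly a repressor in complex with the retinoblastoma family and needed for red cell formation in mice, averaged 8.97 ± 0.18 in AKR F1 and 8.06 ± 0.07 in DBA F1 (SD, n = 3 each). The groups did not overlap, the difference was 0.91 (SE 0.11, limma's adjusted p = 0.0039), and E2f4 has 1 probe set. Mybl2, the MYB factor that works with MuvB, was higher by 0.73 and E2f2, an activator abundant in red cell precursors, by 0.51. The other E2f2 probe set differed by -0.05. Lin54, the subunit of MuvB that contacts the TTTGAA letters shown above, differed by -0.47, and Skp2, which marks the inhibitor p27 for degradation, by -0.54. Ccne2 was the sixth of these by adjusted p. Of 13 measured cell cycle inhibitors and growth arrest genes, Btg2 and Cdkn2c, an inhibitor of CDK4 and CDK6, were higher by 0.57 and 0.50, Ccng1 differed by -0.53 and was lower, and the median was 0.10. The called shares of these 4 lists were 23.4%, 29.2%, 34.6% and 23.1%, beside 22.3% of genes above the median level. With any of the 3 covariates named below, none of their genes passed.

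**Figure D4:**
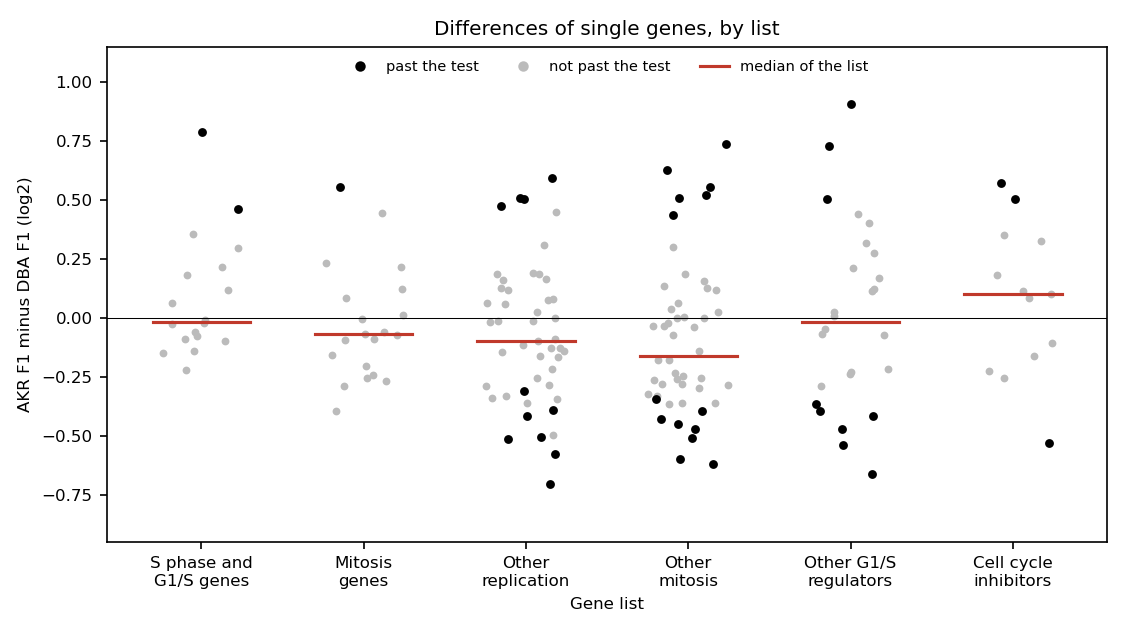
Each point is a gene, with the log2 difference of AKR F1 from DBA F1 on the y axis and its list on the x axis, and the red line is the median of the list. Black points, past the test, lie on both sides of 0 in the 4 lists outside the 39 genes, and only above 0 in the S phase and G1/S genes and the mitosis genes.

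The 3 calls depended on which arrays were used. Without AKR F1 replicate 1, 2 or 3 none of the 38 genes passed, and the calls over all genes were 1396, 685 and 793. Without DBA F1 replicate 1, 2 or 3 the number was 5, 1 and 2, and without replicate 2 the single call was Plk1. Without replicate 1 the calls included Ttk and Nusap1 as lower in AKR F1. The differences of Ccnd3, Ccne1 and Foxm1 stayed positive in all 6 of these fits, at 0.58 to 0.96, 0.37 to 0.54 and 0.38 to 0.66. None of the 38 genes passed with the muscle markers, the hybridization controls or the 3' to 5' index as a covariate. Of all genes, 52, 1 and 21 passed in these fits. Each of the 3 covariates separated the groups of arrays without overlap, so it cannot be told apart from the cross. In these fits, taken in that order, Ccnd3 differed by 1.05, 0.83 and 0.62, Ccne1 by 0.30, 0.49 and 0.60, and Foxm1 by 0.60, 0.89 and 0.33.

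**Figure D5:**
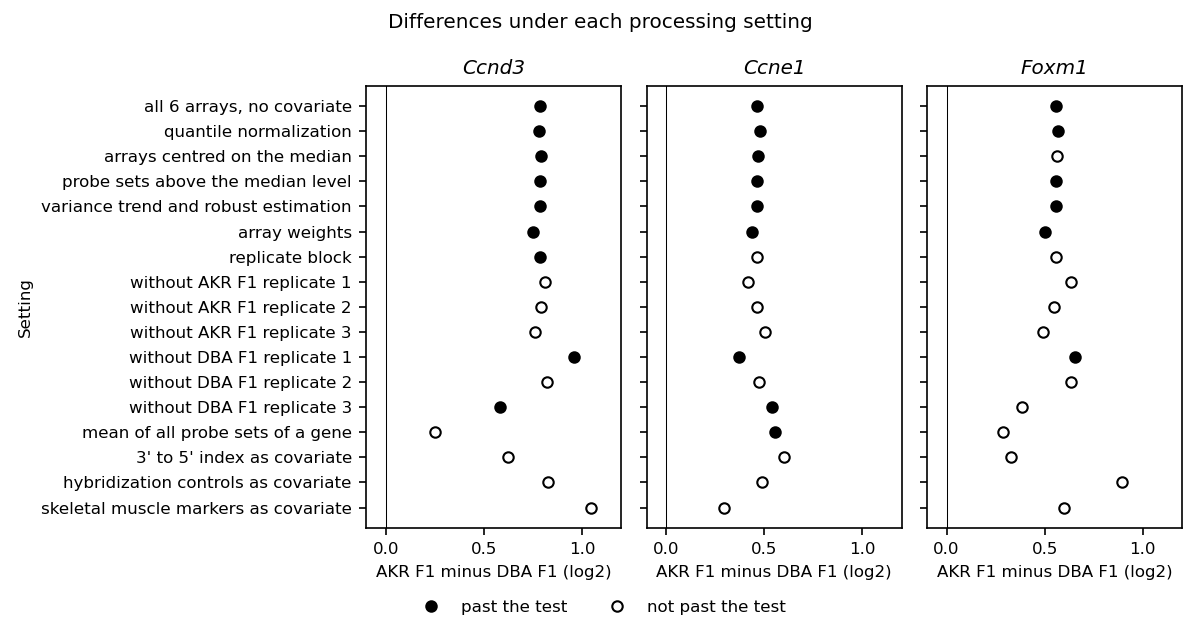
Points on the x axis are the log2 differences of Ccnd3, Ccne1 and Foxm1 between AKR F1 and DBA F1 under each processing setting, filled where the gene passed the test and open where it did not. All points lie above 0, and the fits that leave out an AKR F1 array or add a covariate are open.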

How the data were processed

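RNA of frozen marrow was prepared with Trizol, biotin-labelled and hybridised to one Affymetrix array a sample, as the labels' protocols state. The deposited values are log2 expression per probe set, with nearly equal medians on all arrays (5.14 to 5.19). The submitters' processing notes list MAS5 and RMA, and the sources used here do not say which of them gave these values. The 64 control probe sets stayed out of the tests. Of the others, 34945 carry 1 symbol in the platform annotation, 932 several and 9160 none.

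Groups came from the sample titles. A linear model in limma 3.58.1 (R 4.3.3) with moderated variances compared the crosses over the 6 arrays, two-sided, with 4 residual degrees of freedom. The fit was also run on simulated data. These had independent errors for each gene and no array-wide differences, so that run cannot vouch for the calls here. Figures were drawn with matplotlib 3.10.9 in Python 3.11.15. The number of arrays limits the precision. All 39 genes were accounted for, and from each other list up to 6 genes with the smallest adjusted p past the threshold were named. The members and lists were chosen with earlier results of these data known. Alternatives were other scalings, filters, variance models, weights, covariates and thresholds, a replicate block, averaging the probe sets of each gene and leaving out each array.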

Additional observations from a re-analysis of the deposited data

How the results depend on the processing

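Counts among the 38 genes are given as genes called, S phase and G1/S genes, mitosis genes and then probe sets, which were 3, 2, 1 and 6. They were 5, 3, 2 and 8 with quantile normalization, 2, 2, 0 and 6 with arrays centred on the median, 6, 4, 2 and 8 with only probe sets above the median level, 5, 3, 2 and 8 with array weights, 2, 1, 1 and 4 with the replicate number as a block, 0, 0, 0 and 1 at a threshold of 0.01, 7, 4, 3 and 14 at 0.10, and 0 throughout with any of the 3 covariates. With the mean of all probe sets the gene counts were 2, 2 and 0, and with a variance trend all counts were 3, 2, 1 and 8. Leaving out 1 array gave 0 to 5, 0 to 2, 0 to 3 and 2 to 10. Same-numbered arrays had correlations of 0.0058, -0.060 and 0.073 in their deviations, and differently numbered arrays -0.16 to 0.13. These values do not show a pairing by number and cannot exclude it. Ttk was called lower in AKR F1 with the block, with array weights, with only probe sets above the median level, at 0.10 and without DBA F1 replicate 1. Ccne1 and Foxm1 did not pass with the block (adjusted p = 0.051 and 0.064 in limma).

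Some of the 35 genes that did not pass changed sign, none of them past the test where it did. With quantile normalization this was Aurka (0.0067), with array weights Gins1 (0.011) and Aurkb (-0.035). With the mean of all probe sets it was Cdk2 (-0.0040), Mcm2 (0.0075), Tyms (0.034), Aurka (0.23), Aurkb (-0.20) and Bub1 (0.0033), and with the 3' to 5' index Cdk2 (-0.038), Gins1 (0.087), Pcna (0.019), Ccna2 (0.0055), Aurka (0.025) and Aurkb (-0.012). With the hybridization controls it was Cdc6 (0.059), Mcm2 (0.41), Mcm5 (0.24), Pcna (0.045), Rrm1 (0.19), Rrm2 (0.058), Tyms (0.89), Ccnb2 (0.081), Aurka (0.31), Bub1b (0.069), Cenpe (0.21), Cenpf (0.012), Tpx2 (0.25) and Cdc20 (0.068), and with the muscle markers Mcm3 (-0.12), Birc5 (-0.057) and Cenpa (-0.067). Without 1 array Cdk2 ran from -0.031 to 0.11, Mcm2 from -0.13 to 0.062, Mcm5 from -0.048 to 0.059, Gins1 from -0.065 to 0.037, Rrm2 from -0.19 to 0.022, Tyms from -0.21 to 0.21, Aurka from -0.084 to 0.093, Aurkb from -0.15 to 0.12 and Cenpe from -0.14 to 0.012. Each of the 3 covariates separated the groups without overlap, so a difference fitted with a covariate cannot be told apart from it. The cause of these sign changes was not tested. Leaving out 1 array moved the calls among the other replication genes to 2 to 16 (from 11), the other mitosis genes to 2 to 20 (from 14), the other G1/S regulators to 1 to 9 (from 9) and the inhibitors to 1 to 4 (from 3), an alternative chosen after seeing the data.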
